A study of Owenia fusiformis with 26 samples.

Results

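Late cleavage of the annelid *Owenia fusiformis* was compared with the first cleavage stages of the same species. The comparison takes 10 of the 26 libraries of the series. The late-cleavage group holds 4 RNA-seq libraries, at 3 and 4 h post fertilisation (hpf), and the early-cleavage group holds 6, at the 2-cell, 4-cell and 8-cell stages. The other libraries are RNA-seq of the oocyte, the zygote and later stages, from the coeloblastula (5 hpf) over the gastrula (9 hpf), elongation (13 hpf) and the early larva (18 hpf) to the mature larva (27 hpf), and 2 libraries of accessible chromatin that were not used here. Each stage has 2 RNA-seq libraries, made from total RNA of whole embryos raised in artificial sea water, and the labels give no drug, mutant allele or strain for any of them. The study describes the libraries of a stage as biological replicates, but does not say whether they came from separate spawnings or cultures. The p-values of the main fit therefore measure only the spread between libraries of a stage, estimated over all 24 RNA-seq libraries. The deposited columns of the late libraries are named 16C and 32C. The study places the 32-cell stage at about 4 hpf. The 16C columns were taken as 3 hpf by the rule that defines the groups, since no label joins 16C to the 3 h of the sample titles. Each value is a read abundance per transcript that the authors normalised, summed here by gene. Differences are given on the log2(value + 1) scale, late minus early, with the standard error (SE) of the fit.

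The first divisions of an animal embryo run on RNA and protein that the oocyte stored. Later the embryo's own genome becomes active and part of the stored RNA is degraded, a change known as the maternal-to-zygotic transition. In spiral cleavage, which annelids share with molluscs and several other phyla, the blastomeres divide obliquely and give off quartets of small micromeres towards the animal pole, and the fates of many of these cells are set during cleavage. The comparison therefore asks which transcripts appear and which decline between the 8-cell stage and the coeloblastula, in a study of signalling by the kinase ERK1/2 in early development.

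Late cleavage differed from early cleavage in 706 of the 23934 genes tested (2.95%) at an adjusted p under 0.05, 294 of them higher (1.23%) and 412 lower (1.72%). The rises were fewer and larger than the falls. The median log2 difference was 2.42 over the higher genes and -1.07 over the lower genes, against 0.03 over all genes tested, and 201 higher genes but only 72 lower genes differed by more than 1.5 on the log2 scale. The largest rise was 11.08 and the largest fall was -2.97. The 4 late libraries lay entirely above the 6 early ones for 621 genes (2.59%) and entirely below them for 1015 genes (4.24%), and 168 (0.702%) and 350 (1.46%) of these also passed the test. With the replicate number as a block, 1397 genes passed (5.84%), and with that block in a fit of the 10 libraries alone 5125 of 23576 did (21.7%, 2370 higher and 2755 lower). The count fell to 358 without replicate 1 at 4 hpf and to 412 without replicate 1 at 3 hpf. RNA of whole embryos cannot tell fewer cells that express a gene from less of its RNA in each cell.

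**Figure D1:**
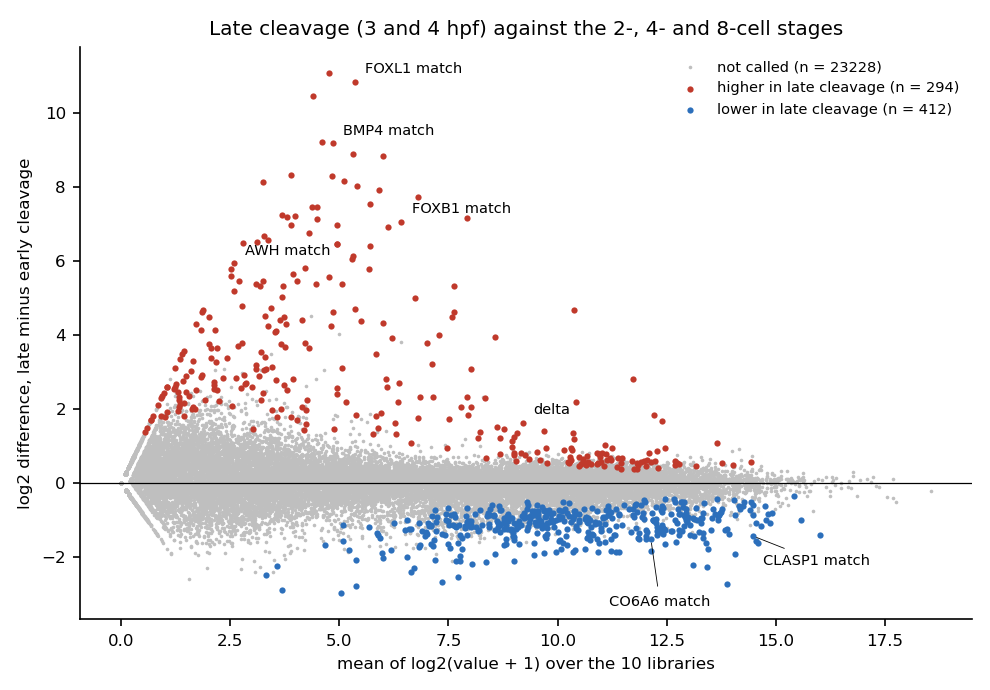
Log2 difference between late cleavage (3 and 4 hpf, 4 libraries) and early cleavage (2-, 4- and 8-cell stages, 6 libraries) against the mean log2(value + 1) over the 10 libraries, 1 point per gene tested; red, the 294 genes called higher in late cleavage; blue, the 412 called lower; grey, the 23228 others. The rises reach 11.08 and stand mostly among genes of low mean level, whereas the falls reach -2.97 and stand among genes of higher level.

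The 10 libraries had similar depth. The deposited values hold no read counts, but the steps between low values gave an estimated 25400000 to 32600000 reads in late libraries and 26100000 to 30500000 in early ones, as rounded figures, so that 1 read was worth a value of between 1.05 and 1.41, and values of a few units rest on a few reads. The 10 most abundant transcripts took 5.10 to 5.59% of the summed values in late libraries and 5.32 to 5.93% in early libraries. Genes with a value of at least 10 numbered 16285 and 16592 at 3 hpf and 16925 and 17144 at 4 hpf, against 15914 to 16680 in early libraries (mean 16736.5 ± 377 late, SD, n = 4, and 16369.5 ± 337 early, SD, n = 6). The difference of 367 genes did not pass a two-sided exact permutation test (p = 0.162, where the smallest possible p is 0.00952). That test ignored the replicate number, and replicate 2 had more such genes at each of the 5 stages. Within replicate 1, 4 hpf (16925) and 3 hpf (16285) lay above the early libraries (15914 to 16264). Within replicate 2, 4 hpf (17144) lay above them (16646 to 16680) and 3 hpf (16592) below. The first principal component of the 10 libraries, with 47.8% of the variance, separated replicate 1 from replicate 2 at every stage, and the second, with 17.6%, followed the stage. On the second component the 4 hpf libraries scored -116 and -87.3 and the 3 hpf libraries -25.0 and -7.62, whereas the early libraries scored between 25.9 and 46.9.

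**Figure D2:**
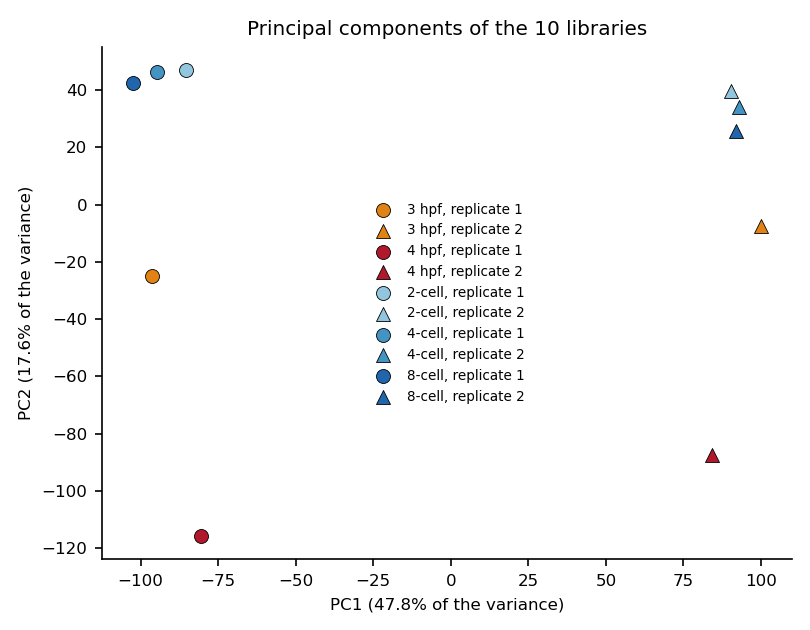
First and second principal components of log2(value + 1) over the genes tested, in the 10 libraries; circles, replicate 1; triangles, replicate 2; colours, stages. PC1 (47.8% of the variance) separates the replicate numbers and PC2 (17.6%) places 4 hpf farthest from the early stages, with 3 hpf between them.

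Gene names were taken only from the study's own gene tables, which concern drug-treated embryos and pair 583 genes with a candidate name or a best match in Swiss-Prot; 582 of them were tested. A name such as FOXL1 therefore states the best match and not an established orthology, and the named genes are no random sample. Of the genes that passed, 30 of the 294 higher and 17 of the 412 lower have such a name, against 2.43% of all genes tested. Lists of named genes are set beside the shares over all genes tested as description only. Those shares are not the background of named genes, and the lists were chosen with earlier results of these data known.

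The largest rises belonged to genes that were almost absent from early embryos. A forkhead gene matching mouse FOXL1 (OFUSG03084), of a family of DNA-binding transcription factors, had values of 3506 and 1333 at 3 hpf and 6510 and 6400 at 4 hpf, against 0 to 11.2 in early cleavage (median 0). The 4 libraries of the 2- and 4-cell stages listed it at 0 and the 8-cell libraries at 11.2 and 4.6, so the first values above 0 preceded 3 hpf. Its log2 difference was 10.85 ± 0.35 (SE), with an adjusted p of 2.33e-11. That size depends on the pseudocount, and was 13.12 with 0.1 and 8.28 with 10. The gene with the largest rise of all has no name in the sources used (OFUSG24904) and followed the same course, at 2212 and 954 at 3 hpf and 5124 and 4992 at 4 hpf, against 0 to 2.8 in early cleavage (11.08 ± 0.70, adjusted p = 9.64e-08). Both had left this level at the gastrula, where the FOXL1 match was at 363 and 587 and OFUSG24904 at 41.7 and 60.5.

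Other rises came later within cleavage. A forkhead gene matching *Xenopus* FOXB1 (OFUSG09642) had 721 and 172 at 3 hpf and 9157 and 6083 at 4 hpf, against 4.2 to 19.1 in early cleavage (median 13.5). Its late mean was 325 times its early mean, and its log2 difference was 7.07 ± 0.52 (adjusted p = 5.75e-07). It differed between 4 hpf and 3 hpf as well, by 4.40 (adjusted p = 0.0145). A LIM homeobox gene matching *Drosophila* Arrowhead, AWH (OFUSG07660), had 4.0 and 4.1 at 3 hpf, a level of a few reads, and 1217 and 850 at 4 hpf, against 0 to 1.4 in early cleavage. Its difference between 4 hpf and 3 hpf, 7.66 ± 0.55 (adjusted p = 1.31e-06), was larger than its difference between late and early cleavage, 5.95 ± 0.36 (adjusted p = 6.16e-08).

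**Figure D3:**
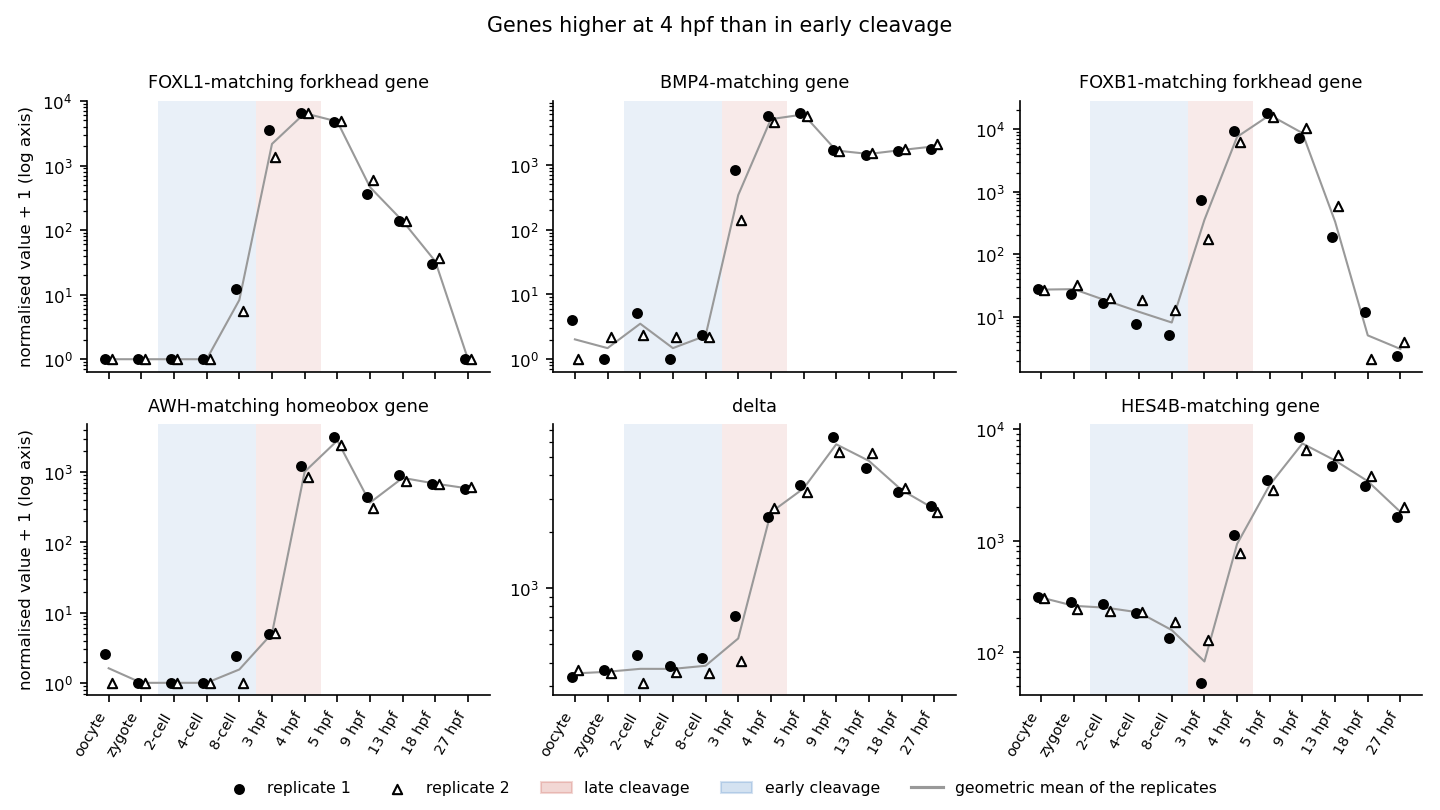
Normalised value + 1 (log axis) of 6 genes at the 12 stages; circles, replicate 1; triangles, replicate 2; lines, geometric means; red shading, late cleavage; blue shading, early cleavage. The FOXL1 match is at 1333 to 6510 in late cleavage and at or below 11.2 in early cleavage, the AWH match reaches 850 and 1217 only at 4 hpf, and the HES4B match has its lowest values, 52 and 127, at 3 hpf.

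The remaining rises that the naming rule selected were smaller or rested on lower values. A gene matching TTPAL (OFUSG02755), a relative of the vitamin E transfer protein, had 44 and 13.7 at 3 hpf and 398 and 180 at 4 hpf, against 0 to 5.5 in early cleavage (5.32 ± 0.51, adjusted p = 8.08e-06). A gene matching LRIG3 (OFUSG25366), a transmembrane protein with leucine-rich repeats, had 109 and 53.2 at 3 hpf and 715 and 501 at 4 hpf, against 23.2 to 37.7 in early cleavage, and its late mean was 11.4 times its early mean (2.80 ± 0.24, adjusted p = 2.21e-06). Both genes had their lowest late value in replicate 2 at 3 hpf. A gene whose best match is a collagen-like protein of a giant virus (COLL2, OFUSG03523) had 48 and 17.7 at 3 hpf and 998 and 132 at 4 hpf, against 0 to 13.95 in early cleavage (5.04 ± 0.90, adjusted p = 0.00356). A gene matching kinectin (KTN1, OFUSG11791), a membrane protein of the endoplasmic reticulum, was abundant throughout, at 7903, 7595, 9396 and 9176 in late cleavage against 5000 to 6939 in early cleavage, 1.51 times higher in the mean (0.60 ± 0.13, adjusted p = 0.0137). The kinectin call was lost without replicate 1 at 3 hpf, 4 hpf, the 4-cell stage or the 8-cell stage (adjusted p = 0.0502 to 0.0773). A gene matching OAM of the nematode *Ascaris suum* (OFUSG02233) was at 2.7 to 16.7 in late cleavage and at 0 to 1.4 in early cleavage (2.54 ± 0.55, adjusted p = 0.0167), and its call was lost without replicate 1 at 3 hpf, 4 hpf or the 2-cell stage (adjusted p = 0.0576 to 0.14) or with a pseudocount of 10 (adjusted p = 0.47).

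Homeobox factors specify position and cell identity along the axes of animal embryos. Of the 27 on the list, 4 rose and none fell, against 1.23% and 1.72% of all genes tested, and their median log2 difference was 0.47, or 0.29 over the 22 with a mean above 0 in early cleavage. Besides the AWH match these were *POU4*, *rhox* and a match of *Drosophila* Rough. *POU4* (OFUSG03481), a POU factor of neurons in other animals, was at 0 and 1.4 at 3 hpf and at 15.4 and 16.5 at 4 hpf and was listed at 0 in all 6 early libraries (adjusted p = 0.00281; 0.101 with a pseudocount of 10). The Rough match (OFUSG17426) was listed at 0 in both 3 hpf libraries and all early ones and was at 32 and 9.4 at 4 hpf (adjusted p = 0.00946). *rhox* (OFUSG21500), a homeobox factor, was at 30.7 and 1.4 at 3 hpf and at 129 and 77.8 at 4 hpf, against 1.4 to 8.3 in early cleavage, 16.4 times higher in the mean (2.89 ± 0.58, adjusted p = 0.009). Of its late libraries only replicate 2 at 3 hpf lay among the early values. Without replicate 1 at 4 hpf the calls of *rhox* (adjusted p = 0.0701) and the Rough match (adjusted p = 0.0957) were lost, and with a pseudocount of 10 that of the Rough match (adjusted p = 0.138).

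One homeobox gene stood apart from the test. A match of the *Dictyostelium* homeobox protein HBX4 (OFUSG05649), singled out after its values were seen, had 507 and 322 at 3 hpf, with all 4 late libraries between 322.2 and 506.7, against 12.8 to 91.4 in early cleavage (median 22.7), 11.2 times higher in the mean. The groups did not overlap, and the 8-cell libraries, at 63 and 91.4, were the highest of the early ones. It did not pass in the fit over all stages (3.82 ± 1.37, adjusted p = 0.2), while within the 10 libraries alone the adjusted p was 0.00205, and 8.2e-07 with the replicate block in them. With a pseudocount of 10 it passed over all stages (adjusted p = 0.00451). A match of LHX3 (OFUSG25600), a LIM homeobox factor of motor neurons and pituitary in vertebrates and likewise singled out afterwards, rose only at 4 hpf, at 83.7 and 40.1 against 8.4 to 28.8 in early cleavage (1.94, adjusted p = 0.0156), and not without replicate 1 at 4 hpf (adjusted p = 0.463).

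Among 10 forkhead genes 3 rose and 1 fell, where 1.23% of all genes rose and 1.72% fell. The third rise, beside the FOXL1 and FOXB1 matches, was *foxQ2* (OFUSG09682), a gene of the apical pole in many animal larvae, at 4.0 and 0 at 3 hpf and 72 and 13.4 at 4 hpf, against 0 to 2.7 in early cleavage (2.77 ± 0.56, adjusted p = 0.0092). It overlapped the early libraries at 3 hpf, and its call was lost without replicate 1 at 3 hpf or at 4 hpf (adjusted p = 0.0812 and 0.0945) or with a pseudocount of 10 (adjusted p = 0.062). A match of FOXJ3 (OFUSG23528) fell, at 1085, 1695, 824.9 and 1214 in late cleavage against 1638 to 2269 in early cleavage (-0.69, adjusted p = 0.0394). In this gene 1 late library overlapped the early ones, and the call was lost when any 1 of 7 libraries was left out (adjusted p = 0.0656 to 0.281). Of the other 21 transcription factors on the lists 1 rose, a match of FEZF2 (OFUSG18814), a zinc finger factor of the vertebrate forebrain, at 0, 4.1, 9.0 and 17.5 in late cleavage against 0 to 2.7 in early cleavage (adjusted p = 0.0292), and this call was lost when any 1 of 8 libraries was left out (adjusted p = 0.0588 to 0.165) or with a pseudocount of 0.1 (adjusted p = 0.0674) or 10 (adjusted p = 0.135). With the block over all stages a match of Scratch (SCRT1, OFUSG04900), a zinc finger factor, was higher as well (1.79, adjusted p = 0.0746 without the block and 0.0235 with it). None of 5 T-box and 8 basic helix-loop-helix (bHLH) genes passed, with median log2 differences of 0.54 and 0.36.

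The 22 candidate genes of the study are transcription factors and signalling genes chosen for their response to drugs in later embryos. In late cleavage 4 of them rose, against 1.23% of all genes, and none fell: *delta*, *POU4*, *foxQ2* and *rhox*. The other 18 did not pass, and the median log2 difference over the list was 0.11, against 0.03 over all genes tested. *cdx*, a ParaHox factor of the hindgut, was at 58.7, 27.3, 73.3 and 23.7 in late cleavage and at 18.6 to 61.5 in early cleavage. *twist*, a mesodermal bHLH factor, was at 5.3, 28.7, 15.4 and 50.7 in late cleavage and at 4.2 to 46.4 in early cleavage. Another mesodermal bHLH factor, *hand2*, was listed at 0 in all 4 late libraries. The apical homeobox gene *six3/6* was at 0, 4.1, 23.1 and 3.1 in late cleavage and at 0 to 5.8 in early cleavage (adjusted p = 0.373).

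Of the signalling ligands, a match of *Xenopus* BMP4 had the largest difference. Bone morphogenetic proteins (BMPs) are secreted ligands that pattern the dorsoventral axis of many animals. The gene (OFUSG12159) was at 840 and 138 at 3 hpf and at 5691 and 4531 at 4 hpf, against 0 to 4.2 in early cleavage (9.18 ± 0.49, adjusted p = 1.58e-08). It differed between 4 hpf and 3 hpf by 3.89 (adjusted p = 0.0212), and the coeloblastula, at 6320 and 5713, was close to 4 hpf. It was the only 1 of 6 genes of the BMP and activin pathway to pass, where 2.95% of all genes tested did. The BMP inhibitor *BAMBI* was at 304, 396, 208 and 332 in late cleavage and at 309 to 437 in early cleavage, and the secreted BMP antagonist *noggin* was at 24, 2.7, 6.4 and 4.1 in late cleavage and at 0 to 16.7 in early cleavage.

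In the Notch pathway, through which neighbouring cells signal by contact, the ligand *delta* (OFUSG11344) rose. It was at 709 and 407 at 3 hpf and at 2402 and 2671 at 4 hpf, against 311 to 439 in early cleavage, 4.11 times higher in the mean (1.64 ± 0.16, adjusted p = 8.08e-06). At 3 hpf alone, replicate 2 lay among the early libraries and the difference of 0.52 did not pass (adjusted p = 0.596; with the replicate block in the 10 libraries 0.046), whereas at 4 hpf it was 2.76 ± 0.20 (adjusted p = 3.12e-07). The 2 late stages differed from each other by 2.24 ± 0.24 (adjusted p = 0.000146). With the 10 libraries fitted as 2 pooled groups, late and early, *delta* did not pass (adjusted p = 0.0831). Matches of HES transcription factors, a class that Notch induces, included HES4B (OFUSG23386), which was singled out after its values were seen because it went both ways. It was at 52 and 127 at 3 hpf and at 1131 and 768 at 4 hpf, against 133 to 267 in early cleavage, so that pooling the 2 late stages gave no call (0.42, adjusted p = 0.527). Against early cleavage it was lower at 3 hpf (-1.33 ± 0.28, adjusted p = 0.0408) and higher at 4 hpf (2.17 ± 0.28, adjusted p = 0.000135), and the 2 late stages differed by 3.50 ± 0.34 (adjusted p = 4.26e-05). The fall at 3 hpf was lost when replicate 1 at 3 hpf (adjusted p = 0.888) or any 1 of the 6 early libraries was left out (adjusted p from 0.0509). The *notch-like* gene was at 2.7, 9.6, 21.9 and 10.3 in late cleavage and at 0 to 12.3 in early cleavage (adjusted p = 0.546).

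None of 13 genes of the Wnt pathway, another system of secreted ligands, passed between late and early cleavage, and their median log2 difference was 0.61. With the block over all stages 1 was higher, the NOTUM match. Under the replicate block in the 10 libraries 3 were higher and 1 lower, where 10.1% of all genes tested were higher and 11.7% lower. At 4 hpf alone 2 rose (1.83% of all genes), both singled out after their values were seen. LYPD6 (OFUSG03915), a modulator of Wnt in zebrafish, had 790 and 675 at 4 hpf, against 167 to 287 in early cleavage (1.60 ± 0.27, adjusted p = 0.00202), and it was lost without replicate 1 at 4 hpf (adjusted p = 0.083). Over both late stages its adjusted p was 0.237, and 0.0338 with the block in the 10 libraries. NOTUM (OFUSG01103), an enzyme that inactivates Wnts, had 41.2 and 18.5 at 4 hpf, against 0 to 7.0 in early cleavage (3.10, adjusted p = 0.0209), and it was lost without replicate 1 or 2 at 4 hpf or replicate 1 at the 2-cell stage (adjusted p = 0.052 to 0.443) and with a pseudocount of 0.1 (adjusted p = 0.181). Over both late stages its adjusted p was 0.098, against 0.0437 with the block over all stages and 0.0187 in the 10 libraries. Of the ligands, *wnt4* was read in replicate 2 only, at 138 at 3 hpf and 80.4 at 4 hpf, and was listed at 0 in replicate 1 of both late stages.

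Receptor tyrosine kinases pass signals through Ras to ERK1/2, and some ETS and TIS11 proteins act downstream of this route in other animals. Of 11 such genes 2 rose and none fell (1.23% and 1.72% of all genes), with a median of -0.30. An ETS factor matching ETS2B (OFUSG17170) was at 5.3 and 9.6 at 3 hpf and at 91.3 and 79.6 at 4 hpf, against 2.7 to 7.0 in early cleavage, 11.5 times higher in the mean (2.45 ± 0.33, adjusted p = 0.000278). A gene matching TISDA (OFUSG26807), of the TIS11 proteins that destabilise AU-rich mRNAs, was at 380 and 202 at 3 hpf and at 1064 and 903 at 4 hpf, against 37.0 to 456 in early cleavage (2.07 ± 0.27, adjusted p = 0.000204). Its early values were unlike one another, from 456 and 175 at 2 cells to 58.7 and 37 at 8 cells, so that both 3 hpf libraries overlapped them.

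The receptors themselves did not pass in the fit over all stages. *FGFR* (OFUSG19037) was at 467, 304, 504 and 458 in late cleavage and at 484 to 997 in early cleavage (-0.73 ± 0.32, adjusted p = 0.368). *VEGFR* (OFUSG03166) was at 8173 and 7272 in replicate 1 and 2774 and 3126 in replicate 2 of the late stages, and at 3301 to 10464 in early cleavage (-0.30, adjusted p = 1). Its replicates differed more than its stages. Both were lower in late cleavage with the replicate block in the 10 libraries (adjusted p = 0.000228 for *FGFR* and 0.00385 for *VEGFR*), as was RASA1, a Ras inhibitor. In that fit 3 of the 11 genes were lower and 2 higher, where 11.7% of all genes tested were lower and 10.1% higher. Without replicate 2 at 3 hpf or at 4 hpf the difference of *VEGFR*, which was not called, turned to 0.09 and 0.000817.

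The falls were of another kind: nearly all of these genes were present in the oocyte and zygote, and most declined only in part. A match of CLASP1 (OFUSG12993), a protein of microtubule plus ends that acts in the mitotic spindle, was at 12223 and 20315 at 3 hpf and at 7705 and 13026 at 4 hpf, against 27240 to 40361 in early cleavage (median 33867). Every late library lay below every early one, and the early mean was 2.55 times the late mean (-1.42 ± 0.17, adjusted p = 9.32e-05). A match of collagen VI (CO6A6, OFUSG16522), an extracellular matrix protein, was at 2353 and 2407 at 3 hpf and at 2269 and 2638 at 4 hpf, against 4052 to 11618 in early cleavage (-1.50 ± 0.18, adjusted p = 0.000109). Its early libraries were already graded, from 11619 and 9128 at 2 cells to 4052 and 4414 at 8 cells, and its mature larva was far above all of them, at 36524 and 55347.

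A match of the *Drosophila* adhesion protein neuroglian (NRG, OFUSG06891) was at 512 and 1470 at 3 hpf and at 233 and 761 at 4 hpf, against 1621 to 2653 in early cleavage, where the mean was 2.99 times higher (-1.85 ± 0.34, adjusted p = 0.00428). Its call was lost in the fit of the 10 libraries alone without a block (adjusted p = 0.0735). A match of semaphorin 5A (OFUSG26311), a guidance cue of axons in vertebrates, was at 1904, 2867, 1301 and 1833 in late cleavage against 3084 to 3818 in early cleavage (-0.87 ± 0.15, adjusted p = 0.00224). In both genes replicate 1 was the lower library at each late stage. A match of *Drosophila* SIF2 (OFUSG01467) was at 204, 292, 197 and 211 in late cleavage against 438 to 668 in early cleavage (-1.25 ± 0.24, adjusted p = 0.007), and its call was lost without replicate 1 at 3 hpf (adjusted p = 0.0593).

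**Figure D4:**
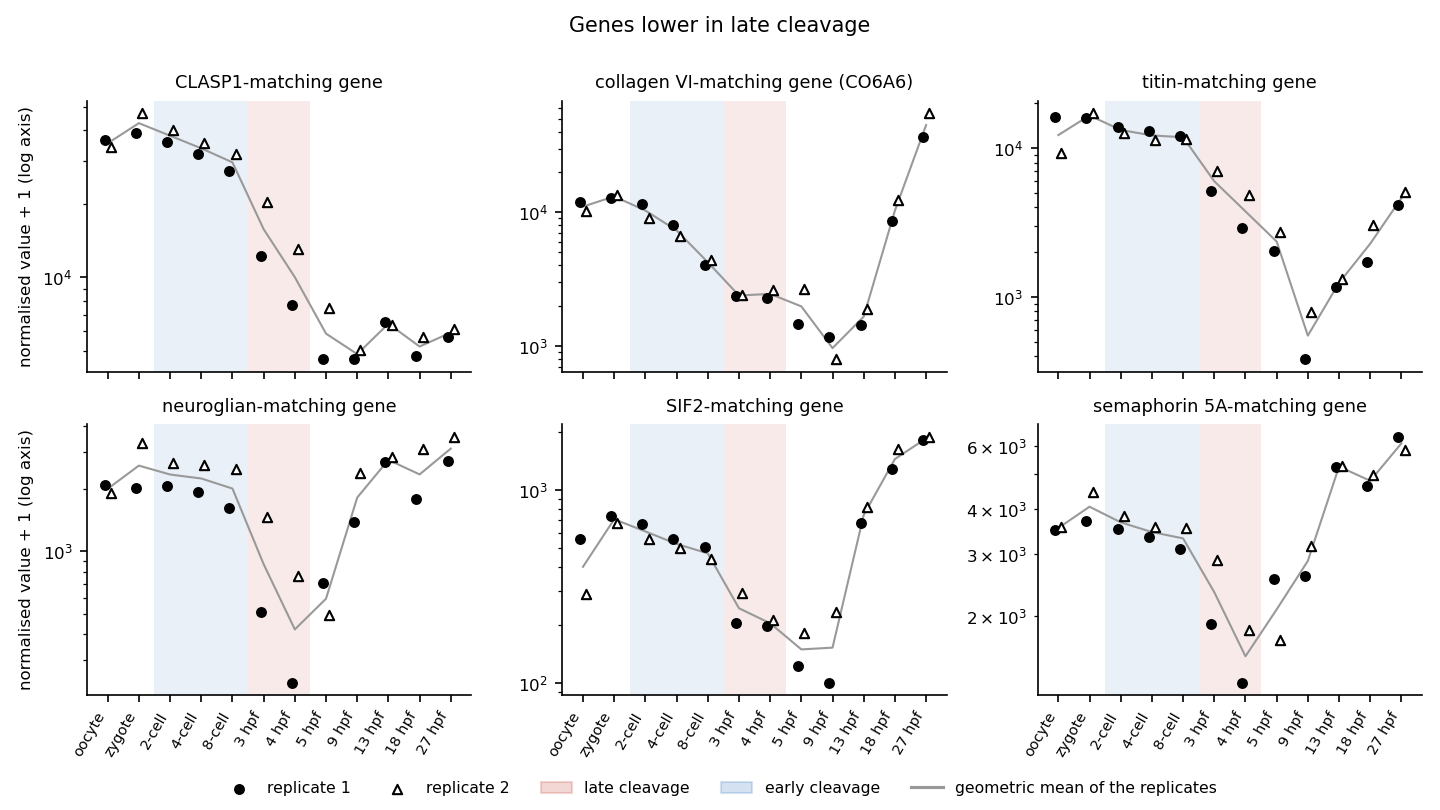
Normalised value + 1 (log axis) of 6 genes at the 12 stages, drawn as in the plot of the rises (circles, replicate 1; triangles, replicate 2; lines, geometric means; red shading, late cleavage; blue shading, early cleavage). In all 6 genes every late library lies below every early one; the CLASP1 match is at 7705 to 20315 in late cleavage and at 27240 to 40361 in early cleavage, and the collagen VI match returns to 36524 and 55347 in the mature larva.

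The largest fitted falls among all called genes whose groups did not overlap were those of OFUSG19939 and OFUSG06783, which have no name. OFUSG19939 was at 12, 27.3, 0 and 21.6 in late cleavage against 39.1 to 122 in early cleavage (-2.97 ± 0.69, adjusted p = 0.0245), and its call was lost when any 1 of 6 libraries was left out (adjusted p = 0.0527 to 0.142) or with a pseudocount of 0.1 (adjusted p = 0.0556). OFUSG06783 was at 0, 9.6, 1.3 and 8.3 in late cleavage against 13.9 to 41.8 in early cleavage (-2.88 ± 0.57, adjusted p = 0.00778), and its call was lost without replicate 1 at 4 hpf (adjusted p = 0.0773). Low values thus carried the largest fitted falls. Other named falls were matches of ZMAT3, a zinc finger protein (OFUSG23458, -1.55, adjusted p = 0.0335), of K0825, a protein of no known role (OFUSG20121, -1.04, adjusted p = 0.0114), and of R3HD2, a protein with an R3H domain (OFUSG13749, -0.96, adjusted p = 0.0201). Their calls were lost when any 1 of 8, 2 and 6 libraries was left out, at an adjusted p of up to 0.161 for ZMAT3, 0.0579 for K0825 and 0.12 for R3HD2, and that of ZMAT3 also with a pseudocount of 10 (adjusted p = 0.0799).

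Genes of cell division and the cytoskeleton did not move as a group, with a median of 0.02 over 10 genes. None rose and 2 fell (1.72% of all genes fell), the CLASP1 match and a filamin match (FLNA, OFUSG06175), an actin cross-linker, at 311, 321, 298 and 393 in late cleavage against 504 to 708 in early cleavage (-0.82 ± 0.13, adjusted p = 0.00181). In the 10 libraries with the replicate block, where 10.1% of all genes were higher, 3 of the list were: matches of CEP44, a centrosomal protein, of a beta tubulin, and of TPR, a nuclear pore protein. TPR (OFUSG13204) was at 9239, 11881, 10810 and 13217 in late cleavage against 5752 to 9753 in early cleavage (0.57, adjusted p = 0.181 without the block, 0.00722 with it over all stages and 6e-05 in the 10 libraries). The 4 chromatin regulators did not pass, with a median of 0.26. Under the same block MTA1, of the NuRD complex, and SMARCC2, of SWI/SNF, were higher and PHC3, a Polycomb protein, was lower, where 10.1% of all genes were higher and 11.7% lower. MTA1 was also higher with the block over all stages (adjusted p = 0.0377).

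The secretory pathway, which brefeldin A blocks in the study's drug experiments, showed no call among 25 genes, with a median of 0.07. With the replicate block over all stages 1 was higher and 1 lower, and with the block in the 10 libraries 7 were higher and 2 lower, where 10.1% of all genes tested were higher and 11.7% lower. The 7 were subunits of the COPI coat of Golgi vesicles (COPB, COPG2, COPE and COPA), an ARF GTPase, the SNARE ATPase NSF, and XBP1, a factor of the unfolded protein response, and the 2 were the Golgi tethers COG5 and USO1. COPB (OFUSG00269) was at 4914, 6028, 6176 and 6944 in late cleavage against 3152 to 5054 in early cleavage (0.58, adjusted p = 0.148; 0.0477 with the block over all stages and 0.000135 in the 10 libraries). COG5 (OFUSG07021) was at 297, 754, 328 and 437 in late cleavage against 446 to 1667 in early cleavage (-1.14, adjusted p = 0.0928; 0.0147 and 4.58e-05 with these blocks). Both genes were higher in replicate 2 of every one of the 5 stages, which is the spread that the block removes.

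The summed values of muscle and cilia markers were far below those of the mature larva. Those of 10 muscle genes were 17248 to 20225 in late cleavage and 23067 to 28940 in early cleavage, against 358219 and 367358 in the mature larva. Of these genes 2 fell and 1 rose, against 1.72% and 1.23% of all genes tested, and the median log2 difference over the list was 0.16. Matches of titin (OFUSG15046), the spring protein of the sarcomere, at 5135, 6992, 2897 and 4875 in late cleavage against 11364 to 13970 in early cleavage (-1.39 ± 0.23, adjusted p = 0.00196), and of troponin I (TNNI, OFUSG08007), at 717, 672, 623 and 638 against 945 to 1278 in early cleavage (-0.73 ± 0.11, adjusted p = 0.00062), were lower. The titin match was at 4166 and 5111 in the mature larva and at 15977 and 17243 in the zygote. Its late cleavage level was thus close to its larval level, and its early level was above it. Its mean was 12451 in early and 4975 in late cleavage, so the lower muscle sum of late cleavage rested in large part on this gene. A sarcoplasmic calcium-binding protein (SCP, OFUSG22512) was at 5.3, 1.4, 32 and 16.6 in late cleavage against 0 to 4.1 in early cleavage (2.24, adjusted p = 0.0212), and its call was lost without replicate 1 at 3 hpf, 4 hpf, the 2-cell stage or the 8-cell stage (adjusted p = 0.0513 to 0.154) or with a pseudocount of 10 (adjusted p = 0.124). The 11 cilia genes summed to 8122 to 9158 in late cleavage and 7627 to 8782 in early cleavage, against 65672 and 72840 in the mature larva. The only call among them, where 1.72% of all genes tested fell, was a fall of a WDR87 match (OFUSG16369), at 892, 1563, 550 and 1124 in late cleavage against 1498 to 1877 in early cleavage (-0.82, adjusted p = 0.0379), lost when any 1 of 8 libraries was left out (adjusted p = 0.0575 to 0.292). None of 12 digestive enzymes and 3 chitin synthases passed. At 4 hpf alone 1 digestive enzyme rose, where 1.83% of all genes tested did. This was the elastase-like match CEL3A (OFUSG16598), at 38.3 and 58.6 against 2.8 to 13.5 in early cleavage (2.32, adjusted p = 0.0129), and not without replicate 1 or 2 at 4 hpf (adjusted p = 0.0981 and 0.183).

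Against the same 6 early libraries, 134 genes passed at 3 hpf (0.56%), 63 of them higher (0.263%) and 71 lower (0.297%), and 773 at 4 hpf (3.23%), 437 higher (1.83%) and 336 lower (1.4%). Under the replicate block the counts were 287 at 3 hpf (1.2%) and 1409 at 4 hpf (5.89%), and with the block in the 10 libraries alone 3176 (13.5%) and 4716 (20.0%). The counts were sensitive to single libraries. The 3 hpf count was 30 without replicate 1 at 3 hpf and 83 without replicate 1 of the 2-cell or the 4-cell stage, and the 4 hpf count was 241 without replicate 1 at 4 hpf and 491 without replicate 2.

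Directly compared, 4 hpf differed from 3 hpf in 153 genes (0.639%), 145 of them higher (0.606%) and 8 lower (0.0334%), with a median of 4.00 over the higher ones. The count was 55 without replicate 1 at 4 hpf, 84 and 100 without replicate 2 and replicate 1 at 3 hpf, and 538 with the block in the 10 libraries (2.28%). Within early cleavage, 8-cell embryos did not differ from 2-cell embryos in any gene in limma (0.0%). Of the 23934 genes tested, 346 had an unadjusted p under 0.05 in this fit, a smaller share than the 0.05 that chance alone gives. With the replicate block 1 gene passed (0.00418%), the TISDA match (-2.57, adjusted p = 0.0137), and it was also the 1 gene that passed without replicate 2 of the 2-cell stage. In the 10 libraries with the block 7 passed (0.0297%), the TISDA and collagen VI matches among them.

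By the order of the libraries, most genes called lower were already lower at the 8-cell than at the 2-cell stage, though the main fit called no gene between these stages. Both 8-cell libraries lay below both 2-cell libraries in 261 of the 412 lower genes (63.3%), against 8.73% of all genes tested. Both 3 hpf libraries lay below all early ones in 362 of them (87.9%, against 6.57% of all genes). Both 4 hpf libraries lay below both 3 hpf libraries in 181 (43.9%, against 10.3% of all genes). For the higher genes the 8-cell libraries lay above the 2-cell libraries in 85 of 294 (28.9%, against 8.16% of all genes). Both 3 hpf libraries lay above all early ones in 169 of them (57.5%, against 5.21%), and both 4 hpf libraries lay above both 3 hpf libraries in 227 (77.2%, against 12.6%). These shares describe genes chosen with the same libraries and carry no test.

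The oocyte and zygote libraries took no part in the contrast. Of the 412 lower genes, 410 had a value of at least 10 in all 4 of these libraries, against 60.1% of all genes tested, and 182 (44.2%, against 5.21% of all genes) had their highest stage mean in the zygote. Of the 294 higher genes, 129 reached that value in all 4 maternal libraries and 110 (37.4%, against 20.0%) were under 10 in all of them. The median stage mean of the higher genes was 13.5 in the oocyte and 10.4 in the zygote, 7.59, 8.21 and 11.2 at 2, 4 and 8 cells, 82.4 at 3 hpf, 830.2 at 4 hpf and 1375 in the coeloblastula. The median of the lower genes was 1619 in the oocyte, 2147 in the zygote, 1810, 1715 and 1463 at 2, 4 and 8 cells, 846 at 3 hpf, 680 at 4 hpf and 699 in the coeloblastula.

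**Figure D5:**
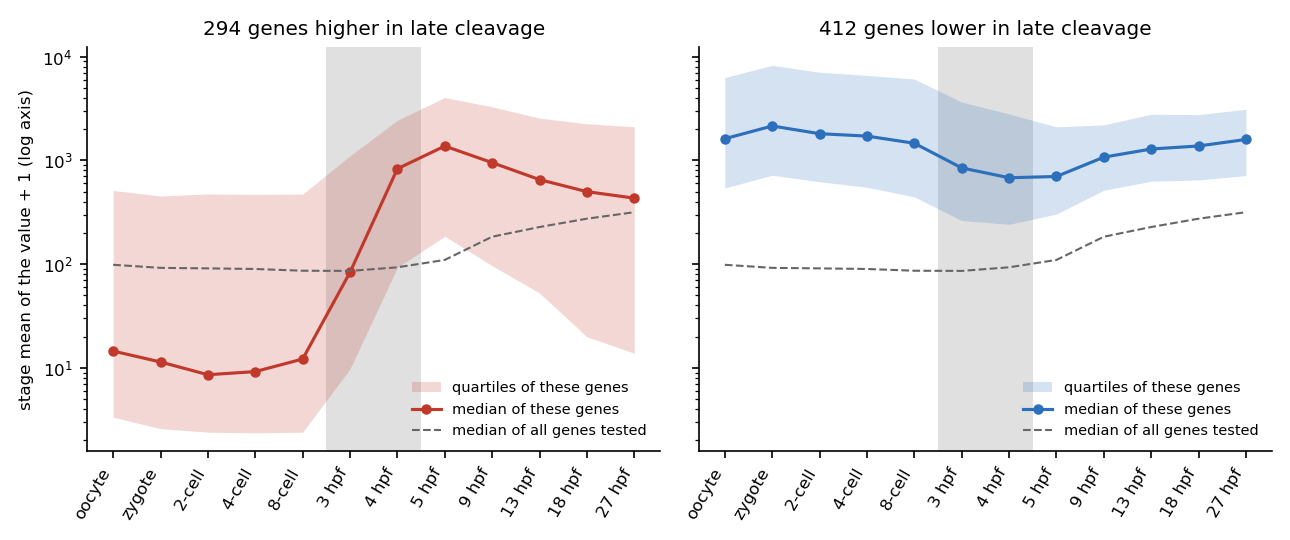
Median (line) and quartiles (band) of the stage means of value + 1 (log axis) for the 294 genes higher (left) and the 412 lower (right) in late cleavage, at the 12 stages; dashed, the median of all 23934 genes tested; grey shading, late cleavage. The median of the higher genes is 82.4 at 3 hpf and 830.2 at 4 hpf and reaches 1375 at 5 hpf; the median of the lower genes is 680 at 4 hpf and 1592 at 27 hpf.

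After cleavage the coeloblastula held the highest stage mean of 95 of the higher genes (32.3%, against 5.07% of all genes tested) and the gastrula that of 65 (22.1%, against 14.7%). Of the others 49 had it at 4 hpf (16.7%, against 3.09%) and 13 at 3 hpf (4.42%, against 4.19%). Both 5 hpf libraries lay above both 4 hpf libraries in 144 genes (49.0%, against 18.0% of all genes) and below them in 49 (16.7%, against 13.1%). The FOXL1 match was lower at 5 hpf than at 4 hpf and was listed at 0 in both mature larva libraries, whereas the BMP4 match was still at 1789 and 2083 there. The mature larva held the highest mean of 113 of the lower genes (27.4%, against 26.9% of all genes tested), and in 167 (40.5%, against 46.2%) both of its libraries lay above all early ones. The collagen VI match was one of these, and the CLASP1 match, at 5714 and 6168 in the mature larva, was not.

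The replicates of the late stages were not at the same distance from early cleavage. Of the 294 higher genes, 209 (71.1%) were higher in replicate 1 than in replicate 2 at 3 hpf and 222 (75.5%) at 4 hpf, against 44.1% and 46.3% of all genes tested. Of the 412 lower genes, replicate 1 was the higher library in 117 (28.4%) at 3 hpf and 88 (21.4%) at 4 hpf. Both sets thus placed replicate 1 farther from early cleavage, in rises such as the BMP4 match, at 840 and 138 at 3 hpf, and in falls such as the CLASP1 match. At the 2-, 4- and 8-cell stages replicate 1 was higher in 110, 99 and 105 of the higher genes (37.4, 33.7 and 35.7%). In the lower genes it was higher in 289, 282 and 241 (70.1, 68.4 and 58.5%). Over all genes tested these shares were 46.1, 44.7 and 44.3%. Against them both sets leaned the other way, the higher genes by less than at 3 and 4 hpf.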

How the data were processed

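Total RNA of whole embryos was sequenced at 12 stages, 2 libraries each. The deposited signal, per the submitters' processing notes made with kallisto 0.46.2 and DESeq2 1.30.1 in R 3.6 among other tools, is a normalised abundance per transcript; the role of each tool, the filters and the annotation release are not given in the sources used here. Such scaling assumes that most genes do not change, so a shift of all RNA would not show. Of the table's 27 columns, 3 match no sample and were not used, nor were the chromatin peaks.

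The 31903 transcripts gave 26966 genes when summed by identifier. Those reaching a value of 10 in 2 or more libraries, 23934 in all, entered limma 3.58.1 (R 4.3.3) on the log2(value + 1) scale (trended variance, stage as factor, 24 libraries in 1 fit, Benjamini-Hochberg adjustment), because the values are not counts. The script was tested on simulated data. Python 3.11.15 (pandas 2.3.3, scipy 1.17.1) served for the tables. Reads per library were estimated from the steps between low values, 93.0 to 100% of which were whole multiples of 1 read to within 0.1 in the 10 libraries; reads without molecular identifiers are not independent molecules.

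Same-numbered replicates deviated together in all 10 pairs of the 5 stages (correlation across genes of 0.565 to 0.692), so the replicate number was taken as a pairing, which the labels do not explain; the main fit, as planned, has no block.

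Named genes were the study's 22 candidates, *FGFR* and *VEGFR*, then, among genes called and not overlapping between the groups, up to 10 named rises (9 were found) and 10 named falls and the 2 largest of each over all genes, and up to 4 called members of each of 17 lists; exceptions are marked. One of the named falls is not reported here. The members and lists were chosen with earlier results of these data known. Alternatives were TMM scaling, pseudocounts of 0.1 and 10, no filter, no trend, transcripts, subsets of stages or libraries, the block, and leaving out each library.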

Additional observations from a re-analysis of the deposited data

Results flagged for a closer look

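Dixon's test was applied to 74 groups of late or early libraries of named genes, and not to both groups of every such gene. Of these groups 3 had a library far from the others, where chance alone gives about 1 in 20. Among the late libraries, replicate 1 at 4 hpf stood above the rest in the COLL2 match, at 998.3 beside 132 or less, and replicate 2 at 3 hpf stood above the rest in the SIF2 match, at 292.1 beside 197 to 211. Among the early libraries, replicate 1 of the 2-cell stage stood above the rest in the TISDA match, at 455.6 beside 175 or less.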

How the results depend on the processing

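The count of genes that differed between late and early cleavage, 706, was within 1.5 times of itself under TMM scaling (682), pseudocounts of 0.1 (706) and 10 (700), no filter (678), no trend (594), single transcripts (639), the 10 libraries alone (582) and, an alternative chosen after seeing the data, the 14 libraries up to 4 hpf (504). It was 134 with only 3 hpf as late cleavage, 158 with only the 8-cell and 422 with only the 2-cell stage as early cleavage. With the replicate block it was 1397 over all stages, 5125 in the 10 libraries and, chosen after seeing the data, 3542 in the 14 libraries. The block moved the 3 hpf count to 287 and the 4 hpf count to 1409, and the comparison of 8-cell with 2-cell embryos to 1, as did a pseudocount of 0.1 (1). In the 10 libraries without a block the 3 hpf count was 39 and the count between 4 hpf and 3 hpf was 26. Among the calls of late against early cleavage lost in that fit were *foxQ2* (adjusted p = 0.112), *rhox* (0.124), the NRG match (0.0735) and OFUSG06783 (0.116). Among those kept were the FOXL1 (0.000212), BMP4 (0.00107) and CLASP1 (0.0128) matches. Leaving out 1 library at a time gave 358 to 622 genes for late cleavage, 30 to 122 at 3 hpf, 241 to 732 at 4 hpf, 55 to 103 between 4 hpf and 3 hpf and 0 to 1 between 8 and 2 cells. The difference in genes detected, 367 at a value of at least 10, was 435 at a value of at least 1 (exact permutation p = 0.39) and turned to -10.3 at a value of at least 100 (p = 0.857). Of 44 results on single genes under 1040 alternatives in all, 837 kept direction and call, 192 lost the call, 9 gained it and 2 turned, both of *VEGFR* and neither called (-0.69 to 0.086 over the libraries left out, with 0.0861 without replicate 2 at 3 hpf and 0.000817 without replicate 2 at 4 hpf). Of the 41 called gene results 21 were called whichever library was left out, and all 41 were called under every replicate block; between late and early cleavage the block changed no other call of a named gene than those given in the report. The cause of these moves was not tested. The limits are 2 libraries a stage, replicates whose source cultures are not given, a scaling that fixes the median gene, and low values that rest on a few reads.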

Other observations

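Of the 294 genes higher in late cleavage, 60 (20.4%) carry an identifier that directly follows or precedes that of another gene of the set, against 21 of the 412 lower genes (5.10%). Such a share depends on the size of the set, and none was computed over all genes tested, so neither share can be judged against a background. Positions were not used here, so this is a property of the identifiers only, and reads shared between near-identical neighbours could not be checked. In 2 genes with more than 1 transcript, 1 transcript was called higher in late cleavage and another lower, which the sums by gene hide.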
